A study of Rattus norvegicus with 8 samples.

Results

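The genes followed here are 44 rat genes of the cell cycle and of DNA replication, chosen by name: 7 that act in G1 phase, 15 in S phase and 22 in G2 phase and mitosis (G2/M). A probe belonged to a gene when its symbol, or an older symbol of the gene such as Cdc2 for Cdk1, was on that list. In all, 39 of the 44 genes had a probe, out of 17928 genes and unnamed single probes (features) on the array, and these 39 genes were represented by 67 of the 23376 probes with complete values. All 7 G1 genes, 12 of 15 S phase genes and 20 of 22 G2/M genes were measured. Bub1, Gmnn, Kif11, Mcm3 and Rrm1 matched no probe name and are not analysed here.

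A cell that leaves quiescence first makes D-type cyclins, which bind the kinase Cdk4 and start the inactivation of the retinoblastoma protein. Release of E2F transcription factors then turns on the genes of DNA replication, among them the Mcm subunits of the replicative helicase, and later the genes of mitosis rise, many of them through a promoter element called the CHR (cell cycle genes homology region). Neurons of the adult cortex are postmitotic, while glia, endothelial cells and infiltrating leukocytes can divide after ischaemia.

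The study asked which transcripts change in rat cortex after a stroke. Sprague Dawley rats were subjected to transient middle cerebral artery occlusion (tMCAO), in which the artery is closed and then reopened, or to a sham operation, and the cortex on the operated side was collected at 24 h from a 4 mm section. Each of the 8 arrays, 4 of tMCAO and 4 of sham animals, carried amplified RNA from a single animal labelled with Cy5, set against pooled cortex RNA of sham rats labelled with Cy3, with the dyes always this way round. Values below are log2 ratios of the animal to the pool, so that 0 is the level of the pool, and a gene is called when its limma adjusted p lies under 0.05 over all features (18 members with more than 1 probe were averaged over their probes). The dissected tissue holds many cell types, so that fewer cells of a type and less RNA per cell cannot be told apart.

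The log2 ratios of all probes had an SD of 0.23 to 0.258 on the sham arrays, 0.614 to 0.741 on the first 3 tMCAO arrays and 0.368 on tMCAO replicate 4, whose values stand closer to sham. The deposited intensities were rounded to 2 decimals, and 10 of the 39 members had a mean signal under 0.1, which is only a few rounding steps. For the 5 of these that were called (Mcm2, Mcm6, Ttk, Aurkb and Cdc25b) the range that the rounding allows is given, and for the 5 that were not called (Rrm2, E2f1, Bub1b, Kif2c and Ccnb1) that range included 0 on the log2 scale. Markers of the labelled tissue were present: the summed Cy5 signal of the 6 measured cortical neuron genes was 11.2 to 17.4 on sham arrays and 7.09 to 11.55 on tMCAO arrays. Genes of striatal neurons had signal as well, and their median log2 ratio was -0.65 to -0.39 on the sham arrays.

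Of the cell cycle genes called after tMCAO, most were higher. Of the 39 measured members 19 were called higher and 2 lower, against 15% and 16% of all features, so that 21 were called in either direction, against 31%, and 18 were not called. At least 2-fold rises were called for 7 members, against 3.86% of all features, and at least 2-fold falls for 0 members, against 2.73%. In 17 members all 4 tMCAO animals lay above all 4 sham animals, and in 3 all lay below; among all features 13.8% and 16.2% were separated in these ways. The median log2 difference of the members was 0.44 and that of all features -0.05, and 33 of the 39 had a positive difference. No member was called in the comparison of sham animals with the pool, where 0.0335% of the features were higher and 0.0167% lower (at an unadjusted p under 0.05, 2 of the 39 differed, Ttk and Ccne1, against 7.88% of all features). By phase, 2 of 7 G1 genes were higher and 1 lower, with a median difference of 0.09. In S phase 7 of 12 were higher and none lower, with a median of 0.55, and in G2/M 10 of 20 were higher and 1 lower, with a median of 0.43. Differences between the phases were not tested.

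**Figure D1:**
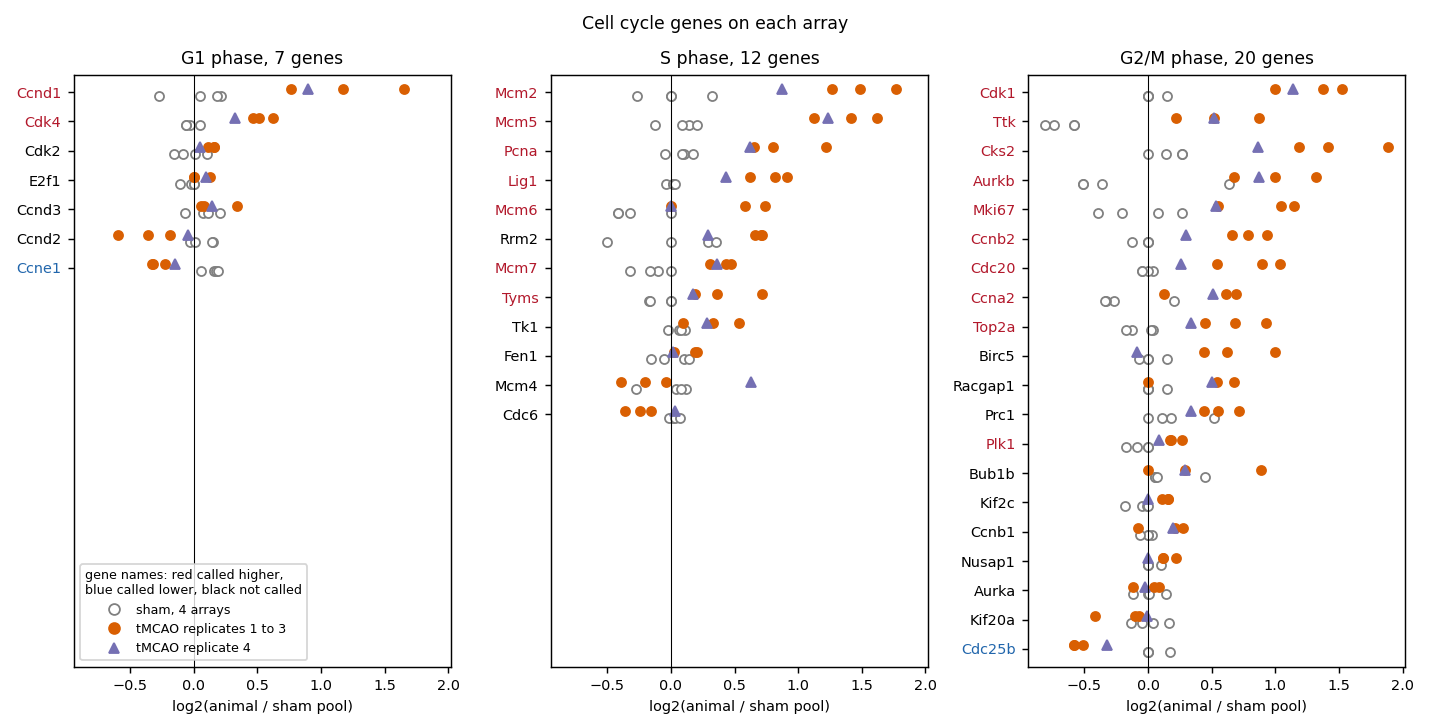
Log2 ratio of each animal to the sham pool (horizontal axis) for the 39 measured members, in 3 panels by phase and ordered by their difference; open circles are sham animals, filled circles tMCAO replicates 1 to 3 and triangles tMCAO replicate 4. In Cdk1 and Mcm5 every tMCAO animal lay above 0.9, and every sham animal below 0.3; in Cdc25b and Ccne1 the tMCAO animals lay below the sham animals.

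Upstream sequences of some called members are shown first, because E2F and CHR elements are known routes of control of S phase and mitotic genes. These members were not taken by size of change alone. Among called members not printed, Ttk, Pcna and Lig1 (log2 differences 1.21, 0.75 and 0.69) had no E2F or CHR match. Mki67 (0.88) and Cdc20 (0.70), also not printed, had a CHR match. RefSeq promoters of the GRCr8 assembly were matched by symbol to 30 of the 39 measured members; Aurkb, Ccna2, Ccnd1, Ccnd2, Cdc6, E2f1, Mcm4, Racgap1 and Rrm2 had no entry. The 150 bases before the annotated start are printed in the direction of transcription for the helicase subunits Mcm2 (chr4:122918095-122918244, minus strand), Mcm5 (chr19:13488663-13488812, plus strand) and Mcm7 (chr12:22163179-22163328, minus strand), for the mitotic kinase Cdk1 (chr20:19265143-19265292, plus strand) and its partners Cks2 (chr17:13727520-13727669, minus strand) and Ccnb2 (chr8:79981659-79981808, minus strand), and for Cdc25b (chr3:138860023-138860172, plus strand), the G2/M member that was lower. Capitals mark E2F, CHR and CCAAT matches on either strand.
Mcm2: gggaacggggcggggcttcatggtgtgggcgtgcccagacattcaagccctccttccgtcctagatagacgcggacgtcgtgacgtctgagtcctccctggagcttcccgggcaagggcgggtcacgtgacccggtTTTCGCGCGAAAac
Mcm5: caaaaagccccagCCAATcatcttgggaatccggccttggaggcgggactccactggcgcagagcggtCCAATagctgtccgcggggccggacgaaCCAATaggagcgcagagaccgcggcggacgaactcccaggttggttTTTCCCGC
Mcm7: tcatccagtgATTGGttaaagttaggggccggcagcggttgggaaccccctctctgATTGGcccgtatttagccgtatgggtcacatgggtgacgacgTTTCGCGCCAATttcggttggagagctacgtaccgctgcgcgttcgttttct
Cdk1: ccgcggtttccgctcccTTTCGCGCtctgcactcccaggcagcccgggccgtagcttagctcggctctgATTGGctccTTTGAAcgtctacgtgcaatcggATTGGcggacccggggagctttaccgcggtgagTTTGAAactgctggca
Cks2: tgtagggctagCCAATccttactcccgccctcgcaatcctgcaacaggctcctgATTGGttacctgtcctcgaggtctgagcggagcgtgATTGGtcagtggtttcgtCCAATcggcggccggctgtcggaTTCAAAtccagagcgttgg
Ccnb2: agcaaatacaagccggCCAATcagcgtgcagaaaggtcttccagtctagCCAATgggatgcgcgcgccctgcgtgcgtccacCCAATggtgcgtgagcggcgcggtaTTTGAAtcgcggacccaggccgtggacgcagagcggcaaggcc
Cdc25b: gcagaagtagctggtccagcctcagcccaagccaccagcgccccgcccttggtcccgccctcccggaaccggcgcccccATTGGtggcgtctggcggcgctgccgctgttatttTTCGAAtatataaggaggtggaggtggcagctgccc

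Motifs were searched on both strands in the 250 bases before the start: TTTCCCGC, TTTGGCGC, TTTCGCGC and TTTGCCGC for E2F, TTTGAA and TTCGAA for the CHR, and CCAAT for the CCAAT box. In the Mcm2 promoter the capitals are 2 overlapping E2F matches on opposite strands, at -14 to -7 and -10 to -3 from the start. In the Mcm7 promoter an E2F match at -52 to -45 overlaps a CCAAT box at -45 to -41. An E2F match was found in 5 of 9 S phase promoters (Mcm2, Mcm5, Mcm6, Mcm7 and Tyms), in 1 of 17 G2/M promoters (Cdk1) and in none of 4 G1 promoters. Of 27457 rat promoters in the table, 1.81% held such a match, and of the 8665 promoters of genes measured on the array, 3% did. All 6 of these members were called higher, although the calls of Mcm6 and Tyms are weak. The 10 other members with a promoter that were called higher, the 2 called lower and the 12 not called had no E2F match. Of the 12 not called, only Tk1 and Fen1 are S phase genes, so this split by call is largely also a split by phase. The uncalled S phase genes Cdc6, Mcm4 and Rrm2 had no promoter entry.

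A CHR match was found in 10 of 17 G2/M promoters, 2 of 9 S phase promoters and none of the G1 promoters, against 17.3% of all and 12.2% of the measured promoters. A CCAAT box stood in 14 of 17 G2/M promoters, against 34.3% of all promoters, and both elements together in 9 of 17, against 6.22%. Cdc25b, which was lower, carries both, as do Cdk1, Cks2 and Ccnb2, which were higher. By call, a CHR match stood in 8 of 16 promoters of members called higher, 1 of 2 called lower and 3 of 12 not called. These sets also differ in phase, and spellings of the CHR other than TTTGAA and TTCGAA were not searched. A match of letters is a description of the sequence and does not show that a factor bound there.

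**Figure D2:**
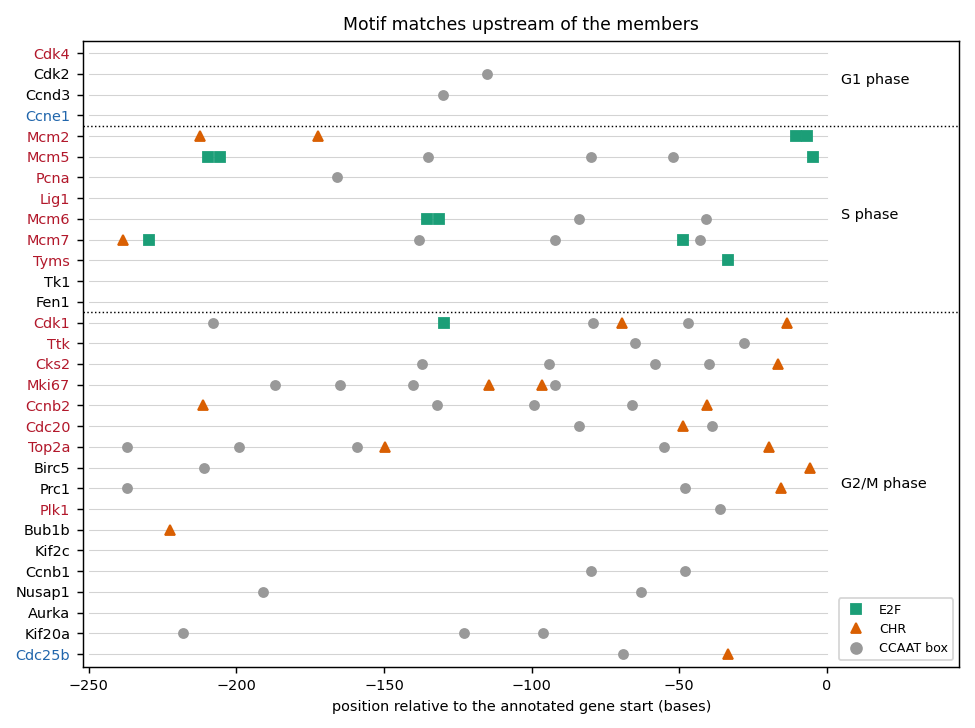
Position of motif matches on either strand in the 250 bases before the annotated start (horizontal axis, bases) of the 30 members with a promoter entry; squares are E2F, triangles CHR and circles CCAAT matches, dotted lines part the phases, and gene names are red where called higher, blue where lower and black where not called. E2F matches lie in 5 of 9 S phase promoters, and CHR matches in 10 of 17 G2/M promoters.

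In G1 phase, the cyclin D1 gene Ccnd1 and its kinase Cdk4 rose, and the cyclin E1 gene Ccne1 fell. The log2 ratios of Ccnd1 were -0.28, 0.05, 0.21 and 0.18 on sham replicates 1 to 4 and 1.65, 1.18, 0.77 and 0.90 on tMCAO replicates 1 to 4. The lowest tMCAO animal was thus well above the highest sham animal, and the rise was 2.12-fold (log2 difference 1.08 ± 0.20, SE, adjusted p = 0.0072). All 3 Ccnd1 probes were called higher. Cdk4, the catalytic partner of the D cyclins, had ratios of -0.03, -0.06, -0.06 and 0.05 in sham and 0.47, 0.62, 0.51 and 0.32 in tMCAO animals. The groups did not overlap and both Cdk4 probes were higher, with a 1.42-fold rise (log2 difference 0.50 ± 0.09, SE, adjusted p = 0.0056).

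Ccne1, whose product binds Cdk2 at the G1/S transition, had log2 ratios of 0.16, 0.17, 0.19 and 0.05 in sham animals and -0.32, -0.33, -0.22 and -0.15 in tMCAO animals. Every tMCAO animal lay below every sham animal, at 1.32-fold lower (log2 difference -0.40 ± 0.08, SE, adjusted p = 0.0082), and 3 of its 4 probes were called lower. Sham animals themselves lay 0.14 above the pool, so that part of the distance is on the sham side. The cyclin D2 gene Ccnd2 had ratios of -0.03, 0.01, 0.15 and 0.14 in sham and -0.60, -0.18, -0.36 and -0.04 in tMCAO animals, separated by a narrow gap, and was not called (log2 difference -0.36 ± 0.12, SE, adjusted p = 0.0547). Without tMCAO replicate 4 Ccnd2 was called lower (log2 difference -0.45, adjusted p = 0.012). In all, Ccnd2 was called lower in 5 of 20 alternative analyses. Array weights, the pool alone as control and both filters on dim features, which keep all arrays, were among them. The cyclin D3 gene Ccnd3 had ratios of 0.07, -0.07, 0.11 and 0.21 and 0.06, 0.34, 0.08 and 0.14, which overlapped (log2 difference 0.08 ± 0.10, SE, adjusted p = 0.567). The D cyclins therefore had differences of both signs, and only that of Ccnd1 was called in the main fit. Cdk2 (0.15) and the transcription factor gene E2f1 (0.09) had log2 differences that were not called. Of the 2 Cdk2 probes, 1 was called higher, at 0.38, and the other, at -0.08, was not called.

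In S phase, subunits of the Mcm2-7 helicase, the sliding clamp and the replicative ligase rose. Mcm2 had log2 ratios of 0, 0, -0.26 and 0.32 on the sham arrays and 1.77, 1.49, 1.26 and 0.87 on the tMCAO arrays. All tMCAO animals lay above all sham animals, at 2.52-fold (1.76 to 3.63 within rounding; log2 difference 1.33 ± 0.20, SE, adjusted p = 0.00405). The mean Cy5 signal of Mcm2 was 0.045 in sham and 0.135 in tMCAO animals. Mcm5 had ratios of 0.14, -0.13, 0.21 and 0.09 in sham and 1.62, 1.42, 1.12 and 1.24 in tMCAO animals, again without overlap (2.42-fold, log2 difference 1.27 ± 0.13, SE, adjusted p = 0.00171).

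The Mcm5 value is the mean of 2 probes that disagree. On the brighter probe the Cy5 intensity rose from 0.21, 0.2, 0.28 and 0.26 in sham animals to 1.88, 1.87, 1.16 and 1.65 in tMCAO animals, a log2 difference of 2.69. The other probe read 0.14, 0.12, 0.12 and 0.12 in sham and 0.1, 0.11, 0.06 and 0.1 in tMCAO animals, and its log2 difference of -0.14 was not called. Among the 67 member probes the first of these had the largest difference, and which of them reports the Mcm5 transcript was not tested. Mcm7, on 1 probe, had ratios of 0, -0.10, -0.32 and -0.16 in sham and 0.44, 0.47, 0.30 and 0.36 in tMCAO animals. The groups were separate, at 1.45-fold (log2 difference 0.54 ± 0.09, SE, adjusted p = 0.00553).

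Mcm6 was called higher (log2 difference 0.62 ± 0.19, SE, adjusted p = 0.0405), but this rests on very low signal: its Cy5 intensity was 0.03, 0.04, 0.03 and 0.05 in sham and 0.04, 0.03, 0.05 and 0.03 in tMCAO animals. The animals' own signal thus had the same mean of 0.0375 in both groups, and the pool channel was lower on the tMCAO arrays. The range within rounding ran from 0.874- to 2.75-fold, and the groups overlapped. The fourth tMCAO animal of Mcm4 went its own way. Mcm4 ratios were 0.12, -0.27, 0.04 and 0.08 in sham and -0.39, -0.20, -0.04 and 0.63 in tMCAO animals, with the first 3 tMCAO animals below 0, replicate 4 above every sham animal, and no call (log2 difference 0.01 ± 0.21, SE, adjusted p = 0.985).

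Pcna, the sliding clamp of the polymerases, had log2 ratios of 0.11, 0.17, 0.08 and -0.05 in sham and 1.22, 0.65, 0.81 and 0.62 in tMCAO animals. The groups were separate and the probe was bright, with a mean Cy5 of 8.09 in sham and 12.9 in tMCAO animals, so rounding hardly touches its 1.68-fold rise (log2 difference 0.75 ± 0.14, SE, adjusted p = 0.00703). Lig1, the ligase that joins Okazaki fragments, had ratios of -0.04, 0.02, 0.02 and 0.03 in sham and 0.91, 0.82, 0.62 and 0.43 in tMCAO animals. The sham animals lay close together and the tMCAO animals were all higher, at 1.61-fold (log2 difference 0.69 ± 0.11, SE, adjusted p = 0.00506). Tyms, which makes the thymidylate needed for DNA, had ratios of 0, -0.17, -0.16 and 0 in sham and 0.36, 0.72, 0.19 and 0.17 in tMCAO animals. The groups were separate at 1.36-fold (log2 difference 0.44 ± 0.13, SE, adjusted p = 0.0327), yet the call was lost in 8 of 21 alternative analyses.

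Other S phase members did not pass the test. Cdc6, the loader of the helicase, had log2 ratios of 0.02, -0.02, 0.03 and 0.07 in sham and -0.36, -0.24, -0.16 and 0.03 in tMCAO animals, so that 3 tMCAO animals lay below the sham range and replicate 4 inside it (log2 difference -0.21 ± 0.10, SE, adjusted p = 0.131). Without replicate 4 Cdc6 was called lower (log2 difference -0.28, adjusted p = 0.0162). Its value is the mean of 2 probes of opposite sign, the brighter at 0.13 and the other at -0.55. The flap endonuclease gene Fen1 had ratios of -0.16, 0.11, -0.05 and 0.14 and 0.03, 0.19, 0.20 and 0.01, which overlapped (log2 difference 0.10 ± 0.10, SE, adjusted p = 0.445). In the Cy5 channel alone Fen1 was called higher, by 0.40, but the pool channel was called higher on the tMCAO arrays too, by 0.30. The ribonucleotide reductase subunit gene Rrm2 had a log2 difference of 0.56 (adjusted p = 0.0587), and 1 of its 2 probes was called higher. The thymidine kinase gene Tk1 had a difference of 0.25 (adjusted p = 0.0895). Of its 2 probes, 1 was called higher, at 0.52, and the brighter, at -0.01, was not called.

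In G2/M, the mitotic kinase Cdk1 and proteins that bind it rose. Cdk1 had log2 ratios of 0.15, 0, 0 and 0 on the sham arrays and 1.38, 1.52, 1.00 and 1.14 on the tMCAO arrays. Its Cy5 intensity was 0.1 to 0.11 in sham animals and 0.18 to 0.26 in tMCAO animals, with a wide gap between the groups, and the rise was 2.33-fold (1.96 to 2.79 within rounding; log2 difference 1.22 ± 0.12, SE, adjusted p = 0.00171). Cks2, a small subunit of Cdk1 complexes, had ratios of 0.26, 0, 0.26 and 0.14 in sham and 1.88, 1.42, 1.18 and 0.86 in tMCAO animals. All tMCAO animals were higher, at 2.25-fold (log2 difference 1.17 ± 0.20, SE, adjusted p = 0.00568). Ccnb2, which encodes cyclin B2, had ratios of 0, 0, 0 and -0.13 in sham and 0.93, 0.79, 0.66 and 0.30 in tMCAO animals. Its groups were also separate, at 1.63-fold (log2 difference 0.70 ± 0.13, SE, adjusted p = 0.00776). The other B-type cyclin gene, Ccnb1, had a difference of 0.16 that was not called, with probe differences from -0.17 to 0.47. Ccna2, which encodes cyclin A2, was called higher by 0.67 although the groups overlapped: 1 probe had a difference of 1.34 at Cy5 intensities of 0.02 to 0.08, and the brighter probe one of -0.01.

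Kinases of the spindle checkpoint and of chromosome segregation gave mixed values. Ttk, the checkpoint kinase Mps1, had log2 ratios of -0.74, -0.58, -0.81 and -0.58 in sham and 0.87, 0.51, 0.22 and 0.51 in tMCAO animals. Sham animals lay below the pool in this gene (-0.68, adjusted p = 0.0855), so that the rise of 2.31-fold against sham (1.64 to 3.32 within rounding; log2 difference 1.21 ± 0.14, SE, adjusted p = 0.0022) was smaller against the pool alone, at a log2 ratio of 0.53. Aurkb, the kinase of the chromosomal passenger complex, had ratios of -0.36, 0.64, -0.51 and -0.51 in sham and 1.32, 0.68, 1.00 and 0.87 in tMCAO animals. The groups were just separate, with sham replicate 2 close to the tMCAO animals (2.23-fold, 1.71 to 2.93 within rounding; log2 difference 1.16 ± 0.27, SE, adjusted p = 0.0141). Its Cy5 intensity was 0.07, 0.14, 0.07 and 0.07 in sham and 0.1, 0.08, 0.1 and 0.11 in tMCAO animals, which overlap. The pool read 0.09, 0.09, 0.1 and 0.1 on the sham arrays but 0.04, 0.05, 0.05 and 0.06 on the tMCAO arrays, a log2 difference of -0.94 in the reference against 0.22 in the animals' own channel.

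Aurka, the spindle pole kinase, had a mean difference of -0.01, but its 2 probes were called in opposite directions, at 0.55 and -0.58. Plk1, another mitotic kinase, was called higher by a small 0.24 (adjusted p = 0.0471), a call lost in 12 of 21 alternative analyses. Bub1b, a checkpoint protein, was not called in the ratio (0.21), and in the Cy5 channel alone it was called lower by 0.41. Cdc20, the activator of the anaphase-promoting complex, rose 1.62-fold without overlap (log2 difference 0.70 ± 0.16, SE, adjusted p = 0.0144).

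Mki67, whose protein Ki-67 marks dividing cells, had log2 ratios of 0.26, -0.21, -0.39 and 0.08 in sham and 1.15, 1.04, 0.55 and 0.54 in tMCAO animals. Every tMCAO animal was above every sham animal in the ratio, at 1.85-fold (log2 difference 0.88 ± 0.19, SE, adjusted p = 0.0117). Its Cy5 intensity was 0.24, 0.13, 0.16 and 0.19 in sham and 0.31, 0.33, 0.22 and 0.29 in tMCAO animals, which overlap. In the Cy5 channel alone Mki67 was called higher by 0.70, and its pool difference of -0.19 was not called. Top2a, the topoisomerase that separates sister DNA, was 1.58-fold higher (log2 difference 0.66 ± 0.13, SE, adjusted p = 0.00964), with 2 of its 4 probes called higher and probe differences from 0.16 to 1.2. The 2 called probes had Cy5 intensities of 0.02 to 0.12. The brightest probe (0.42, not called) read 0.36 to 0.47 in sham and 0.27, 0.53, 0.32 and 0.3 in tMCAO animals. Its pool signal was 0.39 to 0.45 on the sham and 0.22 to 0.3 on the tMCAO arrays. Birc5, which encodes survivin, had ratios of 0, -0.07, 0 and 0.15 in sham and 0.62, 1.00, 0.44 and -0.09 in tMCAO animals. Replicates 1 to 3 were above all sham animals and replicate 4 was below them, and Birc5 was not called (log2 difference 0.47 ± 0.20, SE, adjusted p = 0.11); without replicate 4 it was (0.66, adjusted p = 0.00539). Kif20a, a mitotic kinesin, had ratios of -0.05, 0.04, -0.14 and 0.17 and -0.41, -0.07, -0.10 and -0.01, which overlapped (log2 difference -0.15 ± 0.11, SE, adjusted p = 0.325). The cytokinesis and spindle genes Racgap1 (0.39), Prc1 (0.31), Kif2c (0.17) and Nusap1 (0.09) had log2 differences that were not called.

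Cdc25b, the phosphatase that activates Cdk1 at mitotic entry, went down. Its log2 ratios were 0, 0.17, 0 and 0 in sham and -0.51, -0.58, -0.58 and -0.32 in tMCAO animals. All tMCAO animals were lower, at 1.46-fold lower (log2 difference -0.54 ± 0.09, SE, adjusted p = 0.00529), and the log2 difference was -0.91 to -0.18 within rounding. The Cy5 intensity was 0.07 to 0.09 in sham and 0.06 to 0.08 in tMCAO animals, and in the Cy5 channel alone the difference of -0.29 was not called (adjusted p = 0.136). The pool signal of Cdc25b was called higher on the tMCAO arrays, by 0.25 (adjusted p = 0.0462).

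**Figure D3:**
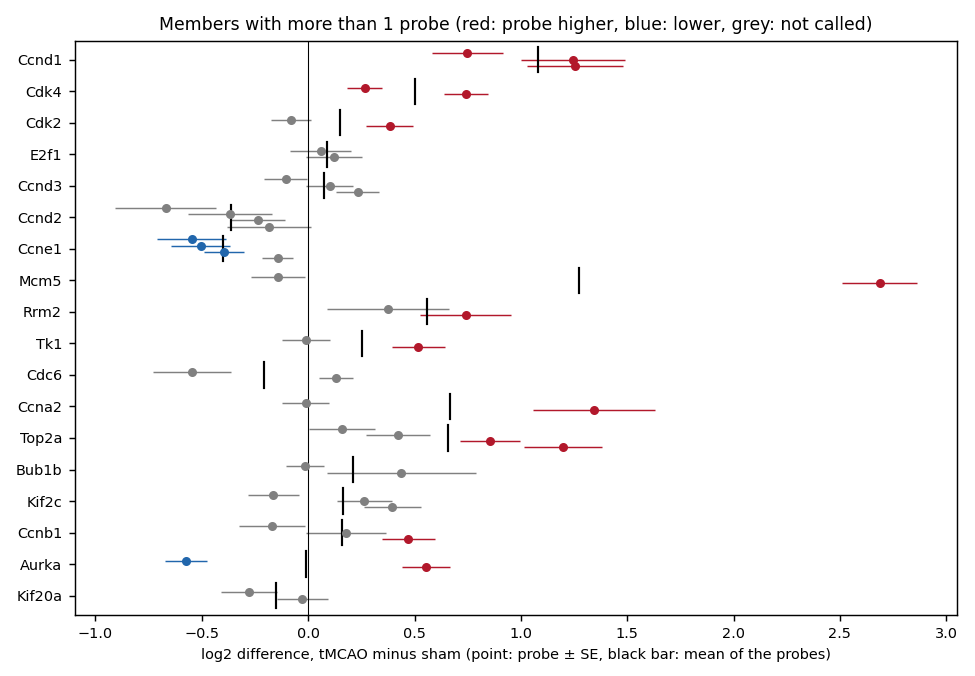
Log2 difference of tMCAO minus sham (horizontal axis) for every probe of the 18 members with more than 1 probe; points are probes with the SE as bar, red where called higher, blue where lower and grey where not called, and the black bar is the mean used for the gene. The Mcm5 probes lie at 2.69 and -0.14 and the Aurka probes at 0.55 and -0.58.

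Of the 67 member probes, 27 were called higher and 5 lower when every probe was tested on its own, against 14.5% and 15.1% of all probes. Aurka was the 1 member with probes called in both directions. In 8 members some probes were called and others not, and in 4 (Mcm5, Ccna2, Aurka and Top2a) the probes lay more than 2-fold apart. The probe sequences were not used here, and the cause of the disagreement was not tested.

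Since the ratio could move through either channel, both were compared between the tMCAO and the sham arrays. In the Cy5 signal of the animals alone, 14 members were called higher, against 17.4% of all features, and 14.1% of all features were called lower. Of the 19 members called higher in the ratio, 13 were among these 14. The 13 were Ccnd1, Cdk4, Mcm2, Mcm5, Mcm7, Pcna, Lig1, Ccnb2, Cdk1, Cks2, Ttk, Cdc20 and Mki67. In 5 of the 19 (Mcm6, Tyms, Plk1, Aurkb and Top2a) the pool signal was called lower on the tMCAO arrays, as in 10.3% of all features, and the Cy5 signal was not called. Ccna2 was not called in either channel alone. The pool signal was called higher on the tMCAO arrays for 4439 of the 17928 features and for 6 members. These were Ccnd3, Cdk4, Lig1, Fen1, Kif20a and Cdc25b. Cdk4 and Lig1 differed by 0.83 and 0.99 in Cy5, with the pool higher by 0.33 and 0.30. A difference in Cy5 alone can thus include a shift that the pool shows as well. The pool is the same kind of RNA on every array, and whether the arrays of the groups were hybridised together is not stated in the labels or headers. The plot of the channels shows Aurkb, Bub1b and Mcm6 at the left, with pool differences of -0.94, -0.63 and -0.62; that of Bub1b was not called.

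**Figure D4:**
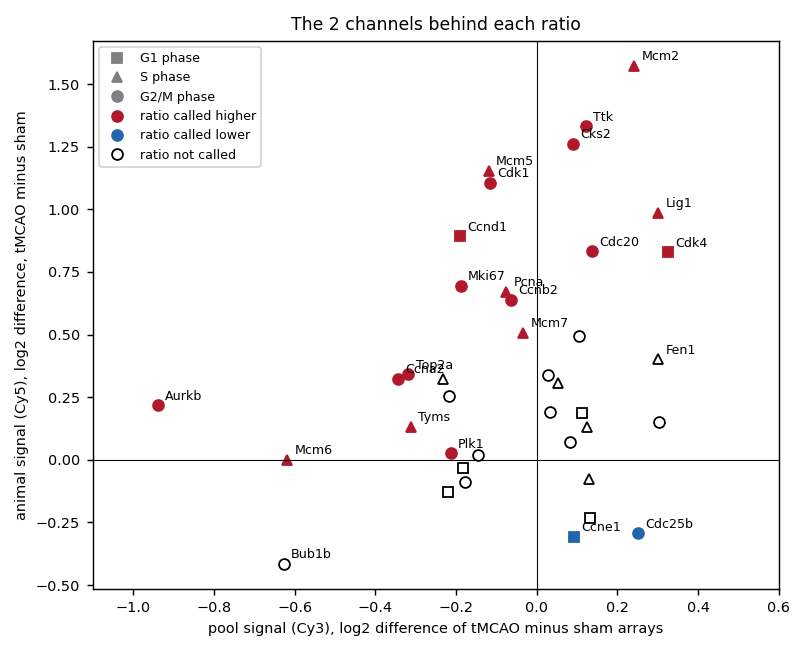
Log2 difference of tMCAO minus sham arrays in the pool channel (Cy3, horizontal axis) and in the animals' channel (Cy5, vertical axis) for the 39 members; squares are G1, triangles S and circles G2/M genes, red where the ratio was called higher, blue where lower and open where not called. Mcm2, Ttk and Cks2 differ in Cy5 by over 1.2, while Aurkb, Bub1b and Mcm6 differ in the pool by -0.94, -0.63 and -0.62.

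Genes around the members in the same pathway were counted over lists, beside the 15% of all features called higher and the 16% called lower. Of 28 measured genes of origin licensing and the replisome, 12 were higher and 1 lower. Cdt1, which loads the Mcm helicase in G1, rose most in this list (log2 difference 1.70 ± 0.14, SE, adjusted p = 0.00145). Gins1, a subunit of the active helicase (1.04 ± 0.14), the clamp loader subunit Rfc3 (0.89 ± 0.23) and Mcm10 (0.72 ± 0.15) were also called higher, although the Mcm10 range within rounding, -0.32 to 1.75, includes 0 and the call of Rfc3, whose groups overlapped, was lost in 8 of 21 alternative analyses. The single-strand binding protein gene Rpa1 was lower by a small step (-0.28 ± 0.08), a call lost in 10 of 20 alternatives, with a difference of -0.0047 in the Cy5 signal alone. Of 37 mitosis, spindle and anaphase-promoting complex genes, 12 were higher and 2 lower. The chromokinesin Kif22 (1.61 ± 0.20), the spindle protein Dlgap5 (1.56 ± 0.24) and Ckap2 (1.26 ± 0.20; 0.53 to 2.04 within rounding) rose. Stmn1, which encodes the microtubule-destabilising protein stathmin and is also expressed in neurons, fell (-1.44 ± 0.24), as did the complex subunit Anapc2 (-0.42 ± 0.13), whose groups overlapped and whose call was lost in 11 of 20 alternatives.

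Of 11 checkpoint and DNA damage genes 3 were higher and none lower: Gadd45a, a stress gene induced by p53 (0.96 ± 0.12), Brca2 (0.70 ± 0.12) and the p53 ligase Mdm2 (0.58 ± 0.12). Of 7 CDK inhibitors 2 were higher, Cdkn1c, which encodes p57 (0.92 ± 0.23), and the phosphatase Cdkn3 (0.81 ± 0.21), with the call lost in 4 of 21 and 7 of 20 alternatives. Of 14 other cyclins and CDKs 3 were higher and 2 lower. Cks1b, a relative of Cks2, rose (0.89 ± 0.14) and Ccnh, a subunit of the Cdk-activating kinase, rose by less (0.37 ± 0.11), with overlapping groups and a call lost in 10 of 21 alternatives. The neuronal kinase Cdk5 (-0.66 ± 0.11) and Wee1, which inhibits Cdk1 (-0.47 ± 0.11), fell. Of 13 genes of the RB, E2F and DREAM complexes 2 were higher and 3 lower. In this list and among the other cyclins the shares of called genes were close to those of all features, 15% and 16%. E2f5 (0.89 ± 0.13) and E2f6 (0.37 ± 0.11) rose, and Rbbp4 (-1.05 ± 0.30), Tfdp2 (-0.49 ± 0.12) and Lin37 (-0.44 ± 0.10) fell. The calls of E2f6 and Rbbp4 were each lost in 10 of 21 alternatives, and the groups of Rbbp4 overlapped. The median log2 difference was 0.23 in the replisome list, 0.17 in the mitosis list, 0.09 in the checkpoint list, 0.27 in the inhibitors, 0.11 in the other cyclins and -0.12 in the RB and E2F list, against -0.05 for all features.

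Markers of several cell types moved in the same comparison, in which 15% of all features were called higher and 16% lower. Of 8 microglia genes 4 were higher, of 7 monocyte and macrophage genes 3, of 10 T and NK cell genes 4, of 7 endothelial genes 4 (1 lower), of 6 meningeal fibroblast genes 6, of 6 oligodendrocyte precursor genes 3, and of 5 neural progenitor genes 2 (1 lower). Of 7 astrocyte genes 2 were higher and 3 lower, and of 6 pericyte and smooth muscle genes 2 were higher and 1 lower. Of 6 cortical neuron genes 4 were lower and of 6 striatal neuron genes 5, with none higher in either list. No gene of the neutrophil (5 measured), B cell (2) and red blood cell (2) lists was called. The neutrophil genes S100a9 (1.80, adjusted p = 0.152) and S100a8 (1.60, adjusted p = 0.184) had large differences with overlapping groups, and without tMCAO replicate 4 both were called, at 2.66 and 2.42. The summed Cy5 signal ran from 2.45 to 2.77 in sham and 5.78 to 15.8 in tMCAO animals over the monocyte list, from 13.5 to 13.99 and 16.4 to 26.5 over the microglia list, and from 10.1 to 10.97 and 14.2 to 37.9 over the endothelial list. Over the T and NK cell list the sums of 1.27 to 1.46 and 1.36 to 1.84 overlapped. The genes of that list were dim, with a median signal of 0.0675, and the call of Cd2 was lost in 7 of 21 alternatives. None of the measured markers in these lists was at 0 in all arrays, and their part in the cell cycle values was not tested.

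Replicate 4 of tMCAO stood apart from the other tMCAO arrays in several of these marker lists. On tMCAO replicate 4 the median log2 ratio was -0.05 for microglia genes and 0.08 for endothelial genes, inside the sham ranges, against 0.76 to 0.85 and 1.13 to 1.48 on the other tMCAO arrays. In 4 marker lists it lay above the sham range, at 0.42 for monocytes and macrophages, 0.29 for neural progenitors, 0.17 for meningeal fibroblasts and 0.11 for T and NK cells. The value for neural progenitors was within the 0.23 to 0.58 of the other tMCAO arrays. The medians of the S phase members were 0.40, 0.62, 0.46 and 0.33 on the 4 tMCAO arrays in order, where sham arrays gave -0.01 to 0.05. Those of the G2/M members were 0.65, 0.65, 0.20 and 0.30, against 0 on every sham array. In the medians of S phase and G2/M members replicate 4 thus lay above the sham arrays, and in G2/M it was above replicate 3. The G1 median of replicate 4 was 0.10, inside the sham range of -0.03 to 0.11.

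A fit without replicate 4 called 21 members and 3907 features (21.8%) higher, and 4 members and 24.1% of the features lower, and replicate 4, which that fit did not use, was then set against the same sham mean. Its difference was a median 57.7% (quartiles 49.9% and 87.1%) of that of the other 3 tMCAO animals over the 21 members. Over the 3907 features the median was 35.2% (quartiles 8.25% and 59.9%). Among the 21 members the highest values were 105.2% for Ccna2, 98.1% for Ttk, 92.3% for Mcm7, 89.4% for Aurkb and 88.5% for Mcm5. Ccna2 and Aurkb were not called in the Cy5 signal alone, where all tMCAO animals differed from sham by 0.32 and 0.22. The lowest were 32.1% for Cdc20, 39% for Rrm2, 39.5% for Mcm6 and 40.1% for Ccnb2, apart from Birc5, which at -16.2% was the 1 member of the 21 on the other side of the sham mean. Over the marker genes called higher in that fit, the medians were 46.9% for 4 monocyte and macrophage genes, 29.3% for 6 T and NK cell genes, 26% for 6 meningeal fibroblast genes, 18.4% for 6 microglia genes and 5.91% for 5 endothelial genes. The share was computed for these marker lists only, so it does not set the members apart from all other lists. The 2 astrocyte genes called higher in the main fit kept much of their rise on replicate 4. On tMCAO replicates 1 to 4 Gfap read 0.83, 1.49, 1.32 and 1.14 and Vim 2.03, 2.06, 2.17 and 1.33. These percentages are descriptions of 1 animal and carry no test.

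**Figure D5:**
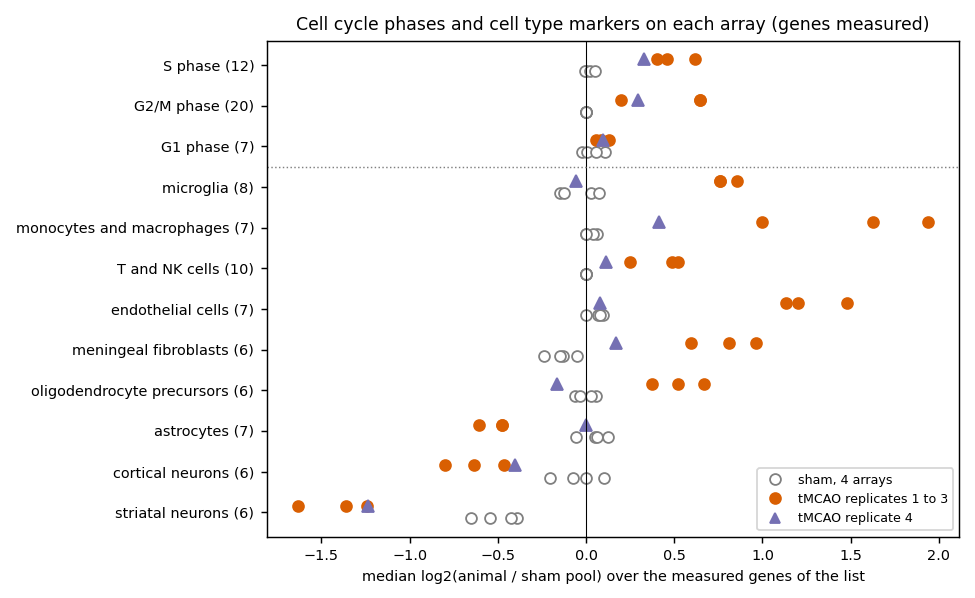
Median log2 ratio to the sham pool (horizontal axis) over the measured genes of each list, given in brackets; open circles are sham animals, filled circles tMCAO replicates 1 to 3 and triangles tMCAO replicate 4. Replicate 4 lies at 0.33 in the S phase list, near the other tMCAO animals, and at -0.05 and 0.08 in the microglia and endothelial lists, with the sham animals; in the monocyte list it lies at 0.42, between the groups.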

How the data were processed

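Cortex RNA of 4 sham and 4 tMCAO rats was hybridised on 2-colour Agilent arrays. Per the labels, 100 ng of RNA was amplified in 2 rounds after RNeasy extraction with 30 min of DNase. Agilent Feature Extraction 8.5.1.1 is the tool in the submitters' processing notes. The deposited table gives, for each array, the intensity of both channels, already normalized by the authors on a linear scale whose construction the labels do not state, and a p-value for the difference of the channels, deposited by the authors. The authors' deposited series matrix holds log10 ratios, whose correlation with the log10 of Cy5 over Cy3 from the table was at least 0.9999993 on each array, in the same direction; with no dye swap, dye bias is not removed by the design. Of 23609 probes, 233 without a value on every array were left out. Over all deposited Cy5 values, before this step, 27.9% lay under 0.1.

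From the intensities, log2(Cy5/Cy3) was computed, and probes of a symbol were averaged after symbols had been updated with the RefSeq gene list of GRCr8; 21 symbols turned into dates were not used. A mean per group was fitted over all 17928 features with lmFit and eBayes of limma 3.58.1 (R 4.3.3, 2-sided, Benjamini-Hochberg), tested on simulated data. The same fit compared sham animals with the pool. The range within rounding moves every intensity of at least 0.01 by 0.005 the way that changes the difference most. The number of arrays limits the precision. The members, the pathway and marker lists and the tests were chosen with earlier results of these data known. Values on every array are given for up to 6 called members of each phase by size among those with separate groups, for members called against their phase, and for up to 2 uncalled members per phase by mean signal; Mcm4, Mcm6, the Mcm5 probes and the other genes given by channel were chosen after their values were seen. From each pathway list up to 4 called genes by size, and up to 2 against its majority, are named; 2 genes of these lists are not reported here and were left out of their lists' counts. The alternatives tried were another normalization or scaling, each channel's use as control or signal, filters on dim features, other ways of joining probes, other variance models and thresholds, the replicate number as a block, and single arrays left out.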

Additional observations from a re-analysis of the deposited data

Results flagged for a closer look

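Within groups of 4 animals, the gap of the highest or lowest animal to its nearest neighbour was compared with the range of the group (Dixon's test). Of 182 groups, 16 were picked out, 9 of them in the cell cycle members. Groups in which all 4 animals were equal, such as the sham animals of Ckap2, were passed over. Chance picks out about 5% of groups where values are not tied, which does not hold for ratios tied by rounding. In 5 of the members the other sham animals were all at a log2 ratio of exactly 0, where a single rounding step sets an animal apart: Cdk1 (0.152 on sham replicate 1), Racgap1 (0.152 on sham replicate 1), Ccnb2 (-0.126 on sham replicate 4), Cdc25b (0.17 on sham replicate 2) and Nusap1 (0.0995 on sham replicate 4). Aurkb stood at 0.637 on sham replicate 2, against -0.51 to -0.36 in the other sham animals. Bub1b stood at 0.45 on sham replicate 2, and Ccna2 at 0.208 on sham replicate 4. Rrm2 stood at 0.292 on tMCAO replicate 4, against 0.66 to 0.71 in the other tMCAO animals.

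Among the genes of the pathway and marker lists, tMCAO replicate 4 stood apart in Lin37 (-0.0938) and Stmn1 (-0.649), where it was nearer to the pool than the other tMCAO animals, and in the striatal gene Adora2a (-0.979), where it was farther from the pool than the others. The T and NK cell gene Cd2 stood at 1.83 on tMCAO replicate 1. On sham arrays, E2f5 stood at 0.429 on replicate 3, the neutrophil gene S100a8 at 1.77 on replicate 1 and the B cell gene Cd79b at 0.0498 on replicate 2.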

How the results depend on the processing

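With the calls as reported, 19 members were higher and 2 lower. In every alternative that gave them a value, apart from the stricter p and fold thresholds, 12 of the 19 and 1 of the 2 kept their call and direction: Ccnd1, Cdk4, Mcm2, Mcm5, Mcm7, Pcna, Lig1, Ccnb2, Cdk1, Cks2, Ttk and Cdc20 among the higher, and Ccne1 among the lower. Calls were lost in at least 1 alternative for Mcm6, Tyms, Ccna2, Plk1, Aurkb, Top2a and Mki67, and for Cdc25b. Where not stated otherwise the cause was not tested.

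Quantile normalization called 1525 features higher and 1385 lower, and 6 G2/M members higher; against the pool it called 1 member higher and 1 lower in sham animals. With the Cy5 signal alone 6 G2/M members were higher; Bub1b turned to -0.41 and the B cell gene Cd79b to -0.38, both called lower. With the pool alone as control, 4056 features were higher and 4723 lower, and 2 G1 members lower. Leaving out features of mean signal under 0.1, or the dimmest features by rank, gave 2 G1 members lower and 0 G2/M members lower, since Cdc25b was itself left out. With every probe on its own 2 G2/M members had a lower probe. The brightest probe per symbol gave -0.010 for Ccna2 and 0.55 for Aurka. Array weights gave 4062 features higher and 4637 lower, and 4 members lower, 2 in G1 and 1 in S phase. An adjusted p under 0.01 left 1083 features higher and 867 lower, 12 members higher and 5 of these in G2/M. A minimum of 1.5-fold left 1598 and 1464 features, 0 members lower (0 in G1 and 0 in G2/M) and 1 G1 member higher. Dim genes dropped by a filter, and genes of several probes tested singly, have no value there. A call that also needs a rounding range on 1 side of 0, added after seeing the data, gave 18 members higher and 2 lower.

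Leaving out each array in turn gave 15 to 21 members higher and 2 to 4 lower, 1701 to 4317 features lower and 1811 to 3907 higher, 1 to 2 G1 members lower, 0 to 1 S phase members lower and 0 to 1 members lower in sham against the pool. Without tMCAO replicate 4 there were 21 and 4 members and 4317 lower features; the lower features were 1845, 1858, 1701 and 1788 without sham replicates 1 to 4, 1835 without tMCAO replicate 1 and 1748 without tMCAO replicate 3.

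The groups share replicate numbers, but samples of the same number did not deviate together (correlations of 0.042, -0.04, 0.016 and -0.046), so the numbers were not used as pairs. With the replicate number as a block, 17 members were higher (2 in G1, 6 in S phase and 9 in G2/M) and 2 lower, and 2029 features were higher and 1953 lower.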

Other observations

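By the p-values of the authors' deposited table, which compare an animal with the pool within 1 array, 26, 30, 16 and 14 of the 67 member probes were higher than the pool at a p below 0.01 on tMCAO replicates 1 to 4, and 4, 3, 3 and 0 were lower. On the sham arrays 0 to 1 were higher and 0 to 2 lower. Over all probes, the authors' deposited table gives 17.4%, 16.2%, 14.6% and 7.22% higher and 18.1%, 17.5%, 14.5% and 4.54% lower on the tMCAO arrays in the same order, and 1.07% to 1.67% higher and 0.813% to 1.08% lower on the sham arrays. On tMCAO replicate 4, then, 14 of 67 member probes were higher where 7.22% of all probes were.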
